A study of Homo sapiens with 4 samples.

Results

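The mitochondrial ribosomal protein genes were taken as the protein-coding genes whose whole symbol is MRPL or MRPS followed by a number and, in some, a letter. The rule found 78 such genes among 19629 protein-coding genes and 58051 gene identifiers of the count tables, and it used no measured value. The counts come from total RNA of extracellular vesicles (EVs), the membrane-bound particles that cells release, of PC3 cells, a line of human prostate cancer cells that was established from a metastasis in bone. The medium for EV collection held serum cleared of exosomes, and the study names the exoEasy Maxi kit and qEV columns for EV isolation. RNA was extracted with a miRNeasy kit and libraries were made with the TruSeq Stranded RNA kit. Both libraries, called replicate 1 and replicate 2, belong to 1 condition, so every comparison below is between genes or between replicates, and no test between conditions applies. The study calls them biological replicates, but the labels do not say that they came from separate cultures, so the spread between them may be technical. RNA of the PC3 cells themselves was not analysed here.

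The mitochondrial ribosome, or mitoribosome, translates the few mRNAs of the mitochondrial genome, all of which encode subunits of the respiratory chain and ATP synthase. Its proteins are encoded in the nucleus, made by cytosolic ribosomes and imported, whereas its rRNAs, MT-RNR1 of the small subunit and MT-RNR2 of the large subunit, are transcribed from the mitochondrial genome itself. Some of its proteins descend from those of the bacterial ribosome and others are found only in mitochondria, and a few carry names that do not begin with MRPL or MRPS. A read on an MRPL or MRPS gene in these libraries therefore marks RNA from the nuclear genome, and says nothing of the protein. MRPS36 fitted the rule by its symbol, but it is now known as a subunit of the 2-oxoglutarate dehydrogenase complex and was placed in neither ribosomal subunit.

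To set members with reads beside members without, coding starts are given for the 4 members with the highest mean level. They are also given for 4 unread members with long canonical transcripts. Of the unread ones, MRPL42, MRPL19 and MRPL30 share exon bases with a gene on the same strand. A read that fits both genes may not have been counted there. Each run holds the first 30 coding bases of a GENCODE release 44 transcript, 5′ to 3′ on the coding strand, with the start codon in capitals, and the first 4 belong to MRPL34 (chromosome 19, 17292609 to 17306843, plus strand), MRPS26 (chromosome 20, 3046052 to 3048250, plus strand), MRPS34 (chromosome 16, 1771890 to 1773150, minus strand) and MRPL43 (chromosome 10, 100969458 to 100987515, minus strand), all on GRCh38.
MRPL34: ATGgctgtcttggctggatccctgttgggc
MRPS26: ATGctacgcgcgctgagccgcctgggcgcg
MRPS34: ATGgcgcggaagaaggtgcgtccgcggctg
MRPL43: ATGacggcgcgcgggactccgagccgcttc
The next 4 belong to members without a read, MRPL42 (chromosome 12, 93467514 to 93516214, plus strand), MRPL19 (chromosome 2, 75646783 to 75690851, plus strand), MRPL30 (chromosome 2, 99181152 to 99199561, plus strand) and MRPS33 (chromosome 7, 141002610 to 141015228, minus strand).
MRPL42: ATGgctgtagctgcagtaaaatgggtgatg
MRPL19: ATGgcggcctgcattgcagcggggcactgg
MRPL30: ATGgctgggattttgcgcttagtagttcaa
MRPS33: ATGtcctccctttcagaatatgccttccgc
Of the 30 bases, 18 were G or C in MRPL34, 23 in MRPS26, 21 in MRPS34 and 22 in MRPL43. The unread members held 14 in MRPL42, 21 in MRPL19, 13 in MRPL30 and 15 in MRPS33. The ranges overlap, and the whole transcripts are compared over all 78 members further on.

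The depth was low. In replicate 1, 489170 reads were counted on genes, and in replicate 2, 475942, which is 2.50% and 2.16% of the 19563744 and 22042233 reads in the tables. Reads that mapped to more than 1 place made up 45.5% and 48.1%, and reads outside annotated features 36.3% and 35.4%. Levels are given as CPM, reads for every 1000000 counted on genes. In replicate 1, 1 read was worth 2.04 CPM, and in replicate 2 it was worth 2.10 CPM. The floor was set at 3 reads, or 6.13 and 6.30 CPM. Amplified reads are not independent molecules, so the floors and intervals stand for counting error alone. Even counts prevailed in both tables, at 70.8% of the 5858 protein-coding genes above 0 in replicate 1 and 68.0% of 6743 in replicate 2, and among the members 17 of 27 and 30 of 39 counts above 0 were even. Why even counts prevailed was not tested.

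Reads on mitochondrial ribosomal protein genes were found in the EVs at low counts and were spread unevenly over the family. The strand of these reads is not known, since the strand setting of the counting is not given. The members together held 342 reads in replicate 1 and 465 in replicate 2, led in mean CPM by MRPL34, MRPS26 and MRPS34. These reads were 0.117% of the protein-coding counts in replicate 1 (95% Wilson interval 0.105 to 0.130%) and 0.168% in replicate 2 (0.154 to 0.184%), a mean of 0.143% ± 0.0365 (SD, n = 2). The intervals of the replicates did not overlap. Members are 0.397% of the protein-coding genes, so they took a smaller share of the counts than of the genes. Without the counts of the mitochondrial genome and RPS29 their share was 0.226%. These shares are not scaled for length. Per kilobase, identified members had a median of 9.22 CPM against 6.73 for identified protein-coding genes. The share of protein-coding counts was 0.0610% ± 0.00229 (SD, n = 2) over the 38 members that share no exon base with another gene. The share of genes given above covers all 78 members.

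A read in both replicates, the criterion used here for an identified gene, was found for 22 of the 78 members (28.2%), against 21.9% of all protein-coding genes. A read in either replicate was found for 44 members (56.4%), against 42.3%. At a minimum of 3 reads in both replicates 15 members were left (19.2%), against 18.6%, and at 10 reads in both 9 were left (11.5%), against 11.6%. At least 10 reads in either replicate were found for 21 members (26.9%), against 28% of all protein-coding genes. The members' share thus lay above the background when single reads counted, most so for a read in either replicate, and close to it when more reads were asked for. Of the remaining members, 5 had reads in replicate 1 only (6.41%, against 7.91%) and 17 in replicate 2 only (21.8%, against 12.4%). No read was found for 34 members (43.6%), against 57.7% of protein-coding genes.

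The 25 members with the highest mean CPM lead the plot of counts by gene. MRPL34, a small rRNA-binding protein of the large subunit with a bacterial counterpart, had the most reads, with 37 in replicate 1 and 74 in replicate 2, or 116 ± 56.5 CPM (SD, n = 2). MRPS26, a small-subunit protein with no bacterial counterpart, had 24 and 56 reads, or 83.4 ± 48.5 CPM. MRPS34, which is needed for stability of the small-subunit rRNA, had 18 and 38 reads, or 58.3 ± 30.4 CPM. All 3 were more than 2-fold higher in replicate 2 than in replicate 1. MRPL34 had the most reads of all members in both replicates, but the SD of each of these genes exceeded its distance to the next in the order. MRPL43, of the large subunit, had 19 and 24 reads, or 44.6 ± 8.19 CPM. MRPL16, a large-subunit protein with a bacterial counterpart near the tRNA-binding sites, had 25 and 16 reads, or 42.4 ± 12.4 CPM. MRPL4, whose bacterial counterpart lines the exit tunnel for the nascent chain, had 12 and 26 reads, or 39.6 ± 21.3 CPM. MRPL16 was the only one of these 6 with more reads in replicate 1.

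**Figure D1:**
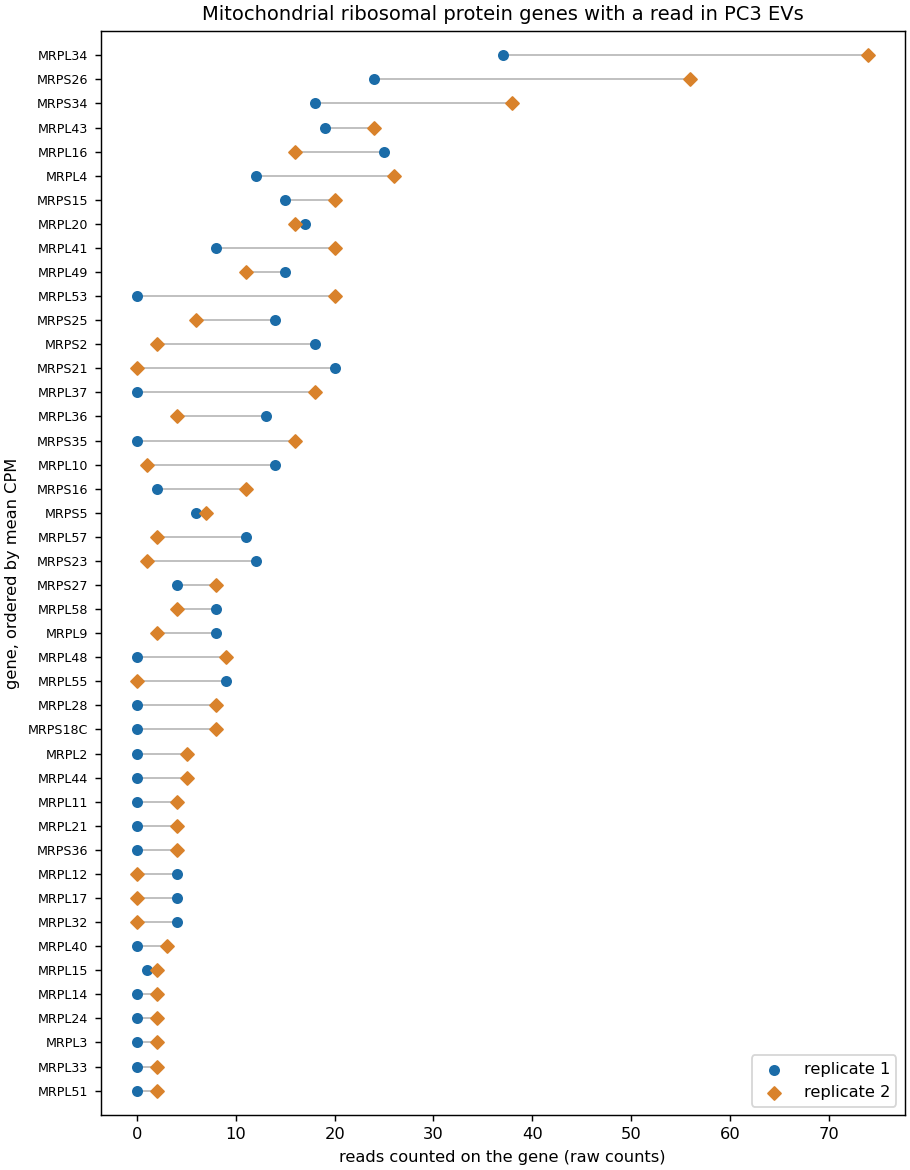
Raw counts (x axis) of the 44 mitochondrial ribosomal protein genes with a read, ordered from top to bottom by mean CPM, with replicate 1 as blue circles, replicate 2 as orange diamonds and a grey line joining them. MRPL34 reached 37 and 74 reads at the top, and 22 of the 44 genes lie at 0 in a single replicate.

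The next members lay between about 27 and 36 CPM, and 3 of these 4 differed little between the replicates. MRPS15, the counterpart of a bacterial protein that binds the small-subunit rRNA early in assembly, had 15 and 20 reads, or 36.3 ± 8.03 CPM (SD, n = 2). MRPL20, a large-subunit protein with a bacterial counterpart, had 17 and 16 reads, or 34.2 ± 0.803 CPM, the smallest SD among the first 10. MRPL49, which is particular to mitochondria, had 15 and 11 reads, or 26.9 ± 5.34 CPM. MRPL41, also particular to mitochondria, was the uneven one, with 8 and 20 reads, or 29.2 ± 18.1 CPM. The first 10 members held 190 of the 342 member reads in replicate 1 (55.6%) and 301 of 465 in replicate 2 (64.7%), and 7 of them were higher in replicate 2.

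Below the first 10, counts that were high in a single replicate made up much of the order. MRPL53, MRPS21, MRPL37 and MRPS35 met the criterion for unequal genes, at least 10 reads in one replicate and 0 in the other. MRPL53, a protein of the large subunit placed near the stalk, had 0 and 20 reads, and MRPL37, particular to mitochondria, had 0 and 18. MRPL53 shares 499 of its 685 exon bases with CCDC142, a gene on the same strand that had 13 and 16 reads. Reads on those bases may not have been counted. MRPS35, of the small subunit, had 0 and 16 reads. MRPS21, with a bacterial counterpart in the small subunit, went the other way, with 20 reads in replicate 1 and 0 in replicate 2. These 4 are 5.13% of the members, against 8.96% of all protein-coding genes, so this degree of unevenness was no more frequent in the family than in the table. With a minimum of 5 reads the count was 10 (12.8%, against 14%), and with 20 reads it was 2 (2.56%, against 3.24%). A count of 0 allows a level up to the floor of 6.13 or 6.30 CPM, and the other count of each gene lay above that. Where bases are shared, as in MRPL53, uncounted reads could place the level higher.

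The other members among the first 25 were read in both replicates. MRPS2, whose bacterial counterpart joins the small subunit late in assembly, had 18 and 2 reads, and MRPS25, particular to mitochondria, had 14 and 6. MRPL36, a very small zinc-binding protein in bacteria, had 13 and 4 reads, and MRPL57, particular to mitochondria, had 11 and 2. MRPL10, which anchors the large-subunit stalk, had 14 and 1 reads, and MRPS23, of the small subunit, had 12 and 1. These 6 were all higher in replicate 1, in contrast to the first members of the order. MRPS16, with a bacterial counterpart, had 2 and 11 reads, and MRPS27, a pentatricopeptide repeat protein of the small subunit, had 4 and 8. MRPS5, which has a bacterial counterpart at the mRNA entry side, had 6 and 7 reads and was the most even of this group. MRPL58, a peptidyl-tRNA hydrolase that rescues stalled mitoribosomes and is built into the large subunit, had 8 and 4 reads, and MRPL9, with a bacterial counterpart, had 8 and 2.

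The remaining 19 members with a read had at most 9 reads in a replicate. Only MRPL15 among them was read in both, with 1 and 2 reads. MRPL48 had 0 and 9 reads and MRPL55 had 9 and 0, while MRPL28 and MRPS18C each had 0 and 8. The other 14 lay between 2 and 5 reads in a single replicate, 11 of them in replicate 2 (MRPL2, MRPL3, MRPL11, MRPL14, MRPL21, MRPL24, MRPL33, MRPL40, MRPL44, MRPL51 and MRPS36) and 3 in replicate 1 (MRPL12, MRPL17 and MRPL32). Over the whole family, 15 members lay above the floor of 3 reads in both replicates and 41 did not rise above it in either.

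The replicates gave a coarse picture of the order within the family. The Spearman correlation of CPM between the replicates was 0.527 across the 78 members and 0.500 across the 22 identified members, as a description across genes that share their libraries and depth. Of the 22 identified members, 8 were more than 2-fold higher in replicate 2, 7 were more than 2-fold higher in replicate 1 and 7 lay within 2-fold. The counts of the 25 members with at least 10 reads summed over the replicates differed by a chi-square of 7.32 per gene. Counting noise of independent reads alone gives a value near 1. Whether the reads were independent was not tested, and even counts prevailed, so that value may be too low a yardstick here. Most identified members thus differed by more than 2-fold between the replicates, and smaller differences between members are within that spread. The fold and chi-square values are not given for all protein-coding genes, so this spread cannot be called particular to the family.

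**Figure D2:**
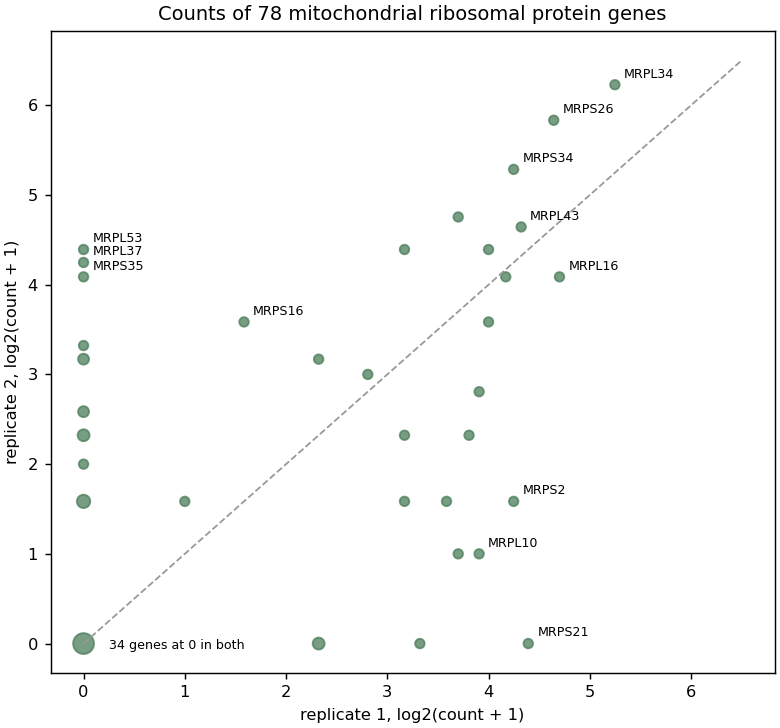
Counts of the 78 members in replicate 1 (x axis) against replicate 2 (y axis), both as log2(count + 1), with the dashed line marking equal counts and larger points holding more genes. MRPL34, MRPS26 and MRPS34 lie above the line, MRPS2 and MRPL10 below it, and 34 genes sit at 0 in both.

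The order by CPM follows the number of reads, which also depends on the length of a gene. Values in CPM per kilobase of the union of annotated exons set levels of different genes side by side, and on this scale the order at the top changed. MRPS26 was highest with 82.0 ± 47.7 CPM per kilobase (SD, n = 2), followed by MRPL34 with 75.9 ± 37.1, MRPS34 with 53.4 ± 27.9 and MRPL41 with 50.2 ± 31.2. The gaps between these 4 were smaller than their SDs. MRPL16 had 19.5 ± 5.69, MRPS15 12.7 ± 2.81, MRPL43 12.5 ± 2.29 and MRPL20 12.4 ± 0.290 CPM per kilobase, so MRPS15, MRPL43 and MRPL20 could not be ordered. The median was 1.23 CPM per kilobase over all 78 members, against 0 over all protein-coding genes, and 9.22 over the 22 identified members, against 6.73 over the 4305 identified protein-coding genes. A median that depends on members with a few reads or none is near the limit of this depth, and with a single replicate it was 0 in replicate 1 and 0.165 in replicate 2.

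Split by subunit, 13 of 51 large-subunit members were identified (25.5%) and 9 of 26 small-subunit members (34.6%), against 21.9% of all protein-coding genes. The difference was -9.13 percentage points for large minus small. The direction depended on the criterion, since with a read in either replicate it was 14.6 points. The large subunit held 209 and 288 reads in replicates 1 and 2, and the small subunit 133 and 173. No read was found for 20 large-subunit members (39.2%) and 14 small-subunit members (53.8%), against 57.7% of all protein-coding genes. By evolutionary origin, 8 of 30 large-subunit members with a bacterial counterpart were identified and 5 of 21 that are particular to mitochondria. In the small subunit these were 4 of 16 with a bacterial counterpart and 5 of 10 particular to mitochondria, the latter with MRPS26 and MRPS34 at the top. With so few genes in each class, no difference between classes, or from the 21.9% of all protein-coding genes, was resolved.

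Within the large subunit, neighbouring proteins of the particle were not read alike. In the stalk group, which binds translation factors, MRPL10 had 14 and 1 reads, MRPL11 0 and 4, MRPL12 4 and 0, MRPL53 0 and 20, and MRPL54 none. Only MRPL10 of these 5 was read in both replicates. At the exit site of the nascent peptide, MRPL17 had 4 and 0 reads and MRPL24 0 and 2, while MRPL22, MRPL23, MRPL45 and MRPL47 had none. In the central protuberance, the crest of the subunit, MRPL48 had 0 and 9 reads and MRPL40 0 and 3, and MRPL18, MRPL38 and MRPL46 had none. None of these 11 genes of the exit site and central protuberance was identified, where 28.2% of all members and 21.9% of all protein-coding genes were, and with so few genes no difference from the other members was resolved.

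Reads that fit more than 1 gene were set aside as ambiguous, 118736 in replicate 1 and 150525 in replicate 2. Exon bases shared with a gene on the same strand were found for 9 of the 34 unread members and 2 of the 22 identified members. The number was 4 among the 22 members read in a single replicate. The same shares over all protein-coding genes are not given here, so these counts cannot be read as a trait of the family. How many ambiguous reads fell on members was not tested. The members without a read are named here for completeness, and each may lie anywhere below the floor, or higher where reads were set aside. In the large subunit they were MRPL1, MRPL13, MRPL18, MRPL19, MRPL22, MRPL23, MRPL27, MRPL30, MRPL35, MRPL38, MRPL39, MRPL42, MRPL45, MRPL46, MRPL47, MRPL50, MRPL52, MRPL54 and, by their place in the particle, MRPS18A and MRPS30. In the small subunit they were MRPS6, MRPS7, MRPS9, MRPS10, MRPS11, MRPS12, MRPS14, MRPS17, MRPS18B, MRPS22, MRPS24, MRPS28, MRPS31 and MRPS33.

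Mitoribosomal subunits under other names were read more evenly. GADD45GIP1, a large-subunit protein also known as CRIF1, had 188 and 166 reads, or 367 ± 25.1 CPM and 207 ± 14.2 CPM per kilobase (SD, n = 2), and per kilobase it lay above every MRPL and MRPS gene in both replicates. DAP3, a GTP-binding protein of the small subunit, had 76 and 52 reads, or 132 ± 32.6 CPM. AURKAIP1 of the small subunit had 33 and 39 reads, or 74.7 ± 10.2 CPM. CHCHD1, another small-subunit protein, had 18 and 12 reads, or 31.0 ± 8.19 CPM, while PTCD3, a pentatricopeptide repeat protein of the small subunit, had none. So 4 of these 5 genes were identified, and these few names held 315 and 269 reads against 342 and 465 for the 78 members.

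The rRNAs of the mitoribosome differed from each other. MT-RNR2, of the large subunit, had 176 and 173 reads, or 362 ± 2.61 CPM (SD, n = 2). MT-RNR1, of the small subunit, had 15 reads in replicate 1 and 0 in replicate 2. The 13 mRNAs of the mitochondrial genome, which the mitoribosome translates, had 639 to 16056 reads in replicate 1 with a median of 3310, and 709 to 16173 in replicate 2 with a median of 3276. Each of these mRNAs alone therefore had more reads than the 78 members together. Whether rRNA was depleted before sequencing bears on the rRNA counts and was not tested.

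Other genes of mitochondrial translation and the respiratory chain were identified at 32% to 46.7% of each list, against 21.9% of all protein-coding genes. No read was found for 57.7% of all protein-coding genes. Of 25 assembly factors of the mitoribosome, 8 were identified (32%) and 6 had no read, and the highest were TRUB2, a pseudouridine synthase, with 76 and 12 reads, MALSU1, which keeps the immature large subunit from joining the small one, with 46 and 10, and DDX28, an RNA helicase, with 35 and 14. Of 15 translation factors and associated proteins, 7 were identified (46.7%) and 5 had no read. GFM2, which splits the mitoribosome for recycling, had 8 and 75 reads, TUFM, the elongation factor that delivers tRNA, had 48 and 18, and SLIRP, a partner of LRPPRC in mRNA stability, had 19 and 24. Of 17 mitochondrial aminoacyl-tRNA synthetases, which charge tRNAs with amino acids, 6 were identified (35.3%) and 5 had no read, and among them WARS2 had 44 and 19 reads and CARS2 had 20 and 22. Of 87 nuclear-encoded respiratory chain genes, 29 were identified (33.3%), with a median of 1.92 CPM per kilobase. The cytosolic ribosomal proteins stood apart, with 67 of 87 genes identified (77.0%) and a median of 25.2 CPM per kilobase against 1.23 for the mitochondrial ribosomal proteins. They held 61871 and 45655 reads together. Their median was only 80.9 CPM, so these sums rest mostly on genes well above the median and do not describe a typical gene of the list. These lists, of which several are small, are described and not tested against each other or against all protein-coding genes.

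**Figure D3:**
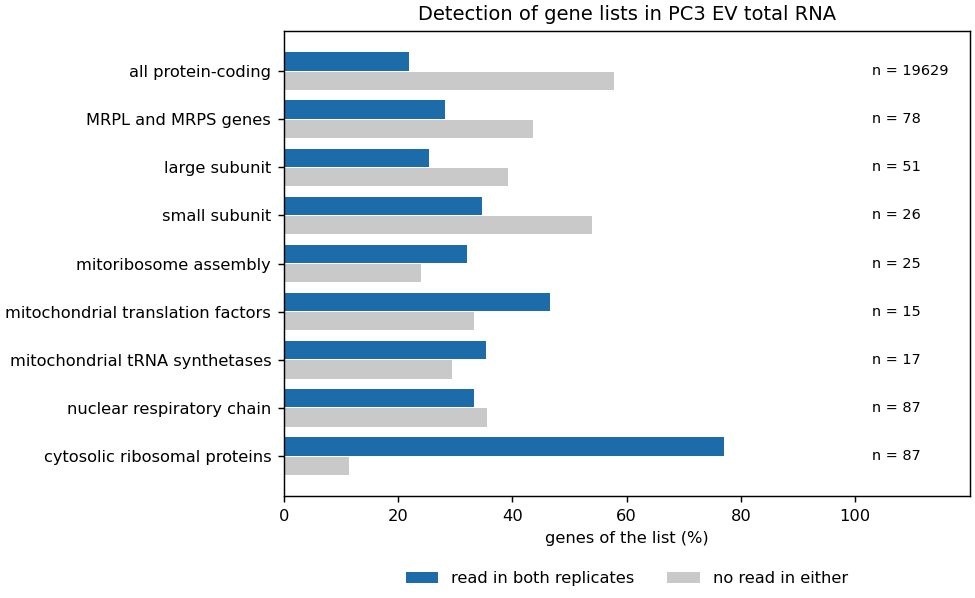
Percent of the genes of each list with a read in both replicates (blue bars) and with no read in either (grey bars), with the number of genes at the right. The mitochondrial ribosomal proteins (MRPL and MRPS genes) reach 28.2% in both replicates against 21.9% of all protein-coding genes, and the cytosolic ribosomal proteins reach 77.0%.

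Many members share exon bases with a gene on the other strand. Since the strand setting of the counting is not given, reads of a gene and of its opposite partner cannot be told apart. Reads on genes without an annotated partner cannot be assigned to a strand either. The overlap with annotated genes is described here. Such an overlap was found for 29 of the 78 members. It was present in 11 of the 22 identified members (50%), in 7 of the 22 read in a single replicate (31.8%) and in 11 of the 34 unread members (32.4%). Over all protein-coding genes the same shares were 50.6%, 42.2% and 25.2%. Identified members thus carried such overlaps about as often as identified genes in general, and 11 identified members shared no exon base with any gene.

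In 7 of the 11 identified members with an opposite partner, the partners had more reads than the member over both replicates together. MRPL4 shares 560 bases with the non-coding LIMASI, which had 279 and 344 reads, and 309 bases with another non-coding gene that had 64 and 53. MRPS34 shares 341 bases with EME2, an endonuclease subunit, which had 81 and 64 reads. MRPS25 shares 7157 bases with NR2C2, a nuclear receptor, which had 67 and 165 reads. In each of the 7 members, including those named next, a partner exceeded the member in both replicates. MRPL9 shares 265 bases with OAZ3, an ornithine decarboxylase antizyme, which had 71 and 90 reads, and also overlaps a non-coding gene with 46 and 39. MRPS16 shares 395 bases with DNAJC9-AS1, which had 73 and 29 reads. MRPS2 shares 250 bases with a non-coding gene that had 134 and 101 reads, and 104 bases with PIERCE1, which had 32 and 0. MRPL20 shares 138 bases with its antisense RNA MRPL20-AS1, which had 22 and 29 reads and was thus closest to the member.

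In the other 4 members the partners had fewer reads than the member when both replicates were summed. MRPL34 shares 223 bases with ABHD8, a hydrolase-fold protein, which had 2 and 4 reads against 37 and 74. MRPL43 shares 1215 bases with SEMA4G, a semaphorin, which had 0 and 1 reads, and 149 bases with TWNK, the mitochondrial DNA helicase, which had 11 and 8. MRPL49 shares 356 bases with SYVN1, a ubiquitin ligase of the endoplasmic reticulum, which had 0 and 15 reads against 15 and 11, so in replicate 2 the partner was the higher one. MRPS27 shares 276 bases with PTCD2, which had none. The counts of MRPS26, MRPL16, MRPS15 and MRPL41 did not involve such an overlap.

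**Figure D4:**
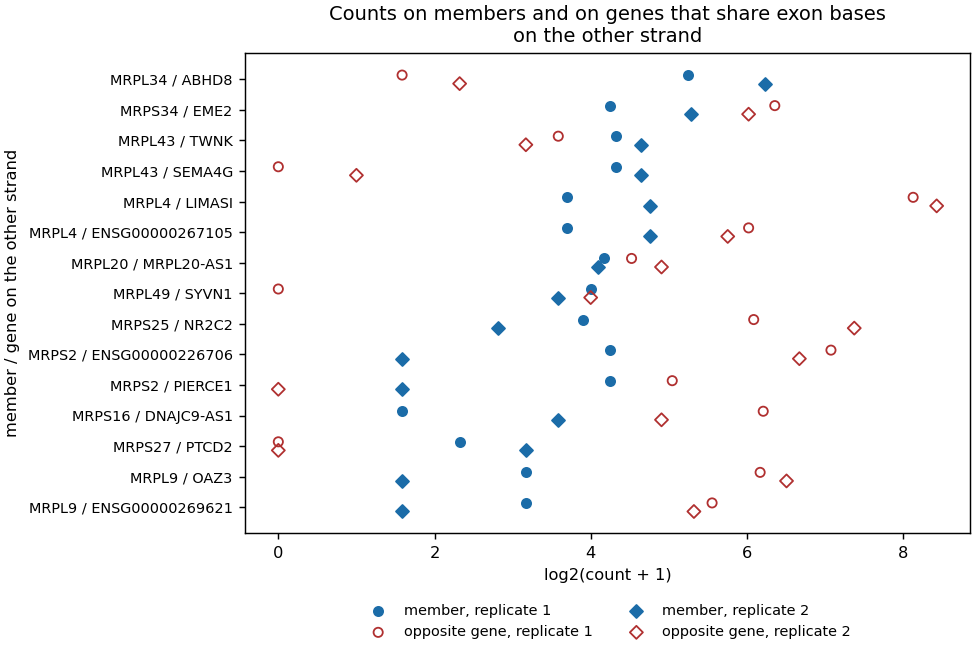
Counts as log2(count + 1) (x axis) of the 11 identified members that share exon bases with a gene on the other strand (filled blue) and of each such gene (open red), with circles for replicate 1 and diamonds for replicate 2, ordered from the top by the member's mean CPM. The partners of MRPL4, MRPS34 and MRPS25 lie to the right of the member, and those of MRPL34 and MRPS27 to the left.

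The family has many pseudogenes, and reads that mapped to more than 1 place were not counted, so counts of members with a near-identical copy are uncertain. The table held 79 pseudogenes named after a member, and 1 of them had reads. This was MRPS18AP1, with 16 and 7 reads, whose parent MRPS18A had none in either replicate, a pair named after its values were seen. A named pseudogene existed for 9 of the 22 identified members (40.9%), 12 of the 22 members read in a single replicate (54.5%) and 15 of the 34 unread members (44.1%). The share of members with a pseudogene was thus similar in identified and unread members.

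The base composition of the transcripts differed between read and unread members. The median GC content of the canonical transcript was 51.4% in the 22 identified members, with a range of 43.7 to 66.7%, 48.7% in the 22 members read in a single replicate and 44.5% in the 34 unread members. Over all protein-coding genes the medians were 52.3%, 47.7% and 48.4%. The ranges overlapped widely, as unread members reached 64.8%. With the members divided into 3 equal parts by GC content, 2 of 26 were identified in the lowest (34.8 to 44.6% GC), 10 of 26 in the middle (45.0 to 51.9%) and 10 of 26 in the highest (52.3 to 66.7%). In the same GC ranges 16.4%, 20.9% and 27.3% of all protein-coding genes were identified, against 7.69%, 38.5% and 38.5% of the members. The only identified members in the lowest part were MRPS5 and MRPS23, with GC contents of 43.7% and 44.6%.

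**Figure D5:**
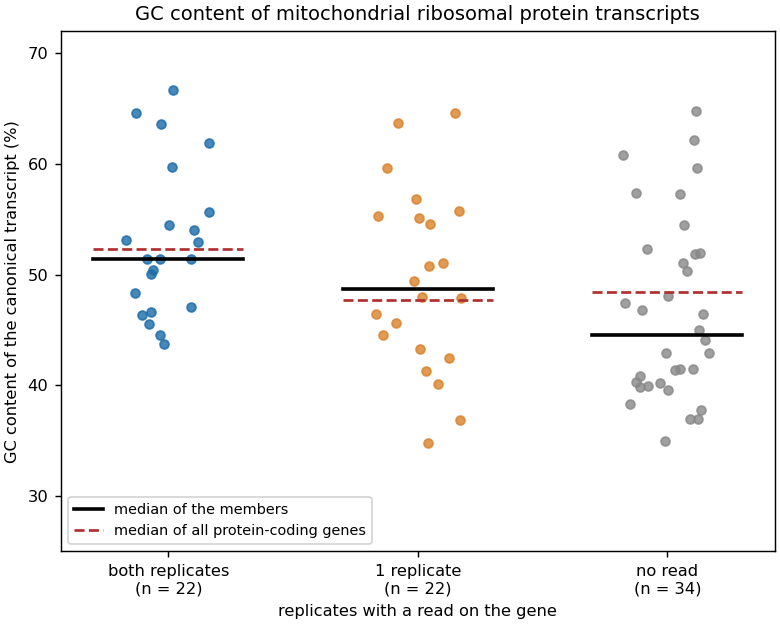
GC content of the canonical transcript (y axis, %) of each of the 78 members by the number of replicates with a read (x axis), with points spread sideways for legibility. Black lines mark the medians of the members, 51.4%, 48.7% and 44.5%, and red dashed lines the medians of all protein-coding genes in the same class, 52.3%, 47.7% and 48.4%.

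Across the 78 members, the Spearman correlation of GC content with mean CPM was 0.383, against 0.101 across all 19629 protein-coding genes. With mean CPM per kilobase it was 0.421, against 0.125. The correlation of transcript length with mean CPM was -0.130, against 0.176, and that of coding length -0.0491, against 0.169. These are descriptions across genes that share their libraries. Member transcripts are short, with a median of 1221 bases in identified and 1356 bases in unread members, against 3437 and 2553 bases over all protein-coding genes. The median coding length went the other way in the family, with 616.5 bases in identified and 573 in unread members. The part of base composition, library preparation or mapping in these counts was not tested.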

How the data were processed

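Total RNA of PC3 EVs was sequenced as 2 libraries. The authors deposited raw read counts per Ensembl gene, made with HTSeq on GRCh38 per the submitters' processing notes. The study's methods name Cutadapt, SHRiMP and SAMtools for trimming, mapping and counting, without saying which library type each was used for. Versions, strand setting and annotation release are not given in the sources used here. Rows for reads set aside were kept out of library totals. Gene types, symbols, exons and transcripts were taken from GENCODE release 44, which matched 56948 identifiers, and 1103 without a match were left out of the protein-coding set. Counts were scaled to CPM on all gene counts and divided by the union of exons where genes were compared. With 1 condition no test was made. Each replicate's share carries a 95% Wilson interval. At a depth of 489170 and 475942 gene counts, 3 reads were taken as the floor.

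Named are the 25 members with the highest mean CPM, those with at least 10 reads in one replicate and 0 in the other, identified members with an opposite-strand partner, unread members, subunits under other names, the mitochondrial rRNAs and, of other lists, at most the 3 genes with the highest mean CPM. Members with fewer reads are listed beside them for completeness. Of the cytosolic ribosomal protein and respiratory chain lists only counts are given, and 1 further gene that the rule covers is not reported here. The members and lists were chosen with earlier results of these data known. Alternatives were other count minimums, denominators, lengths, TMM and RLE factors (checked on simulated data) and leaving out a replicate. The small RNA libraries were not used here. Scaling factors came from edgeR 4.0.16 (R 4.3.3), and the remaining values and plots from Python 3.11.15 using scipy 1.17.1, pandas 2.3.3, matplotlib 3.10.9 and numpy 2.4.6.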

Additional observations from a re-analysis of the deposited data

How the results depend on the processing

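The number of identified members, 22, was 44 with a read in either replicate, 9 with at least 10 reads in both and 11 over members without a shared exon base. It was 15 at 3 reads, 19 at 2 reads (added after seeing the data) and 27 to 39 with a single replicate. The share of protein-coding counts, 0.143%, was 0.0838% of all gene counts, 0.226% without the counts of the mitochondrial genome and RPS29, and 0.0610% over members without a shared exon base. Without MRPL34 it was 0.123%, and with a single replicate 0.117 to 0.168%. The median of 1.23 CPM per kilobase was 1.82 with the longest transcript as length, 2.36 with the canonical transcript (added after seeing the data), 9.22 over identified members and 0 to 0.165 with a single replicate, and stayed at 1.23 under TMM and RLE factors. The difference of -9.13 percentage points between large and small subunit reversed to 14.6 with a read in either replicate, 0.226 with at least 10 reads in both and 10.6 without replicate 1, where the range over single replicates was -5.13 to 10.6. The 4 unequal members were 10 at a minimum of 5 reads and 2 at 20. Where these values moved, the cause was not tested. No paired analysis was possible because the total RNA libraries form 1 group, and the small RNA libraries count other molecules.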
